A study of Mus musculus with 4 samples.

Results

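Titin, the product of Ttn, is the giant elastic protein that spans the sarcomere of striated muscle from Z-disc to M-band. Its transcript was described here by the chimeric reads that fell on it in mouse plantaris muscle. Members were selected on position: every deposited peak of a miRNA on the minus strand of chromosome 2 that overlapped the Ttn span, 76703980 to 76982547 in the GRCm38 (mm10) build. The rule took 3053 of 93468 peak entries in the control library and 3979 of 100897 in the mimic library, where an entry is 1 peak with 1 miRNA. These covered 1 of the 8035 genes with reads. Ttn itself was chosen because it held the most chimeric reads of any gene in both libraries, so its rank and its share are descriptions. The plus strand of the same span held 0 entries in both libraries.

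The assay was chimeric eCLIP of Ago2, in which the Argonaute protein is crosslinked to RNA and pulled down, and the bound miRNA is ligated to the target fragment beside it, so that a chimeric read names both. The muscles came from adult male C57BL/6J mice after 10 days of mechanical overload (MOV), in which removal of synergist muscles loads the plantaris. In the MOV control group the left plantaris had been injected with a scramble-control lentivirus, and in the MOV mimic group the right plantaris with a lentivirus carrying a miR-1 mimic, both under a CMV promoter with a GFP reporter. Each group had 1 library, so nothing below is a test between treatments, and the intervals cover counting error only. CMV is active in many cell types, and the infected cells were not restricted to muscle fibers by the promoter. The control library held 232408 chimeric reads and the mimic library 259207, a ratio of 1.12, and the input libraries were not analysed here.

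A miRNA guides Argonaute to target RNA chiefly through its seed, bases 2 to 8 from its 5′ end, which pair with the target. miR-1, miR-133 and miR-206 are the classic muscle miRNAs, and miR-1 and miR-133 are made from shared precursors. Most described target sites lie in 3′ untranslated regions, but Argonaute also binds coding sequence, and Ttn has one of the longest coding sequences known.

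The mature sequences of miRNAs that led on Ttn are shown to make clear which of them share a seed and could compete for the same letters of the transcript. They are from RefSeq (GRCm38.p6), written 5′ to 3′ with the seed in capitals. Of the 14 miRNAs named by rule, 11 matched an entry, and miR-133a-3p and miR-1a-3p are named only. miR-133a-3p is known to share its seed with miR-133b-3p, and miR-1a-3p with miR-206-3p.
miR-133b-3p: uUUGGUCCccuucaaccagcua
miR-206-3p: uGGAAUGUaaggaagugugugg
miR-27a-3p: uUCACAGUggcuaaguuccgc
miR-27b-3p: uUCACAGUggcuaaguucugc
miR-128-3p: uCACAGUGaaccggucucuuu
miR-26a-5p: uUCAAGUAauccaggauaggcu
miR-26b-5p: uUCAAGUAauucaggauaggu
let-7a-5p: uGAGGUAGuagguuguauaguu
let-7f-5p: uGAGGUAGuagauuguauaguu
The seeds of miR-27a-3p and miR-128-3p are not the same, but the miRNAs share a run of 8 letters, UCACAGUG, at bases 2 to 9 of miR-27a-3p and bases 1 to 8 of miR-128-3p.

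Ttn carried 17514 chimeric reads in the control library (95% Poisson interval, 17256 to 17775) and 23568 in the mimic library (23268 to 23871). That made up 7.54% of all chimeric reads in control muscle (exact binomial interval, 7.43 to 7.64%) and 9.09% in mimic muscle (8.98 to 9.20%), the largest share of any gene in each. Its share of peak entries was lower, 3.27% in control muscle and 3.94% in mimic muscle, so an entry on Ttn held more reads than elsewhere: 5.74 on average in the control against 2.38 outside Ttn, and 5.92 against 2.43 in the mimic. Most entries were still small. The median entry held 0.857 reads in control muscle and 0.758 in mimic muscle, while the 292 control and 323 mimic entries of at least 10 reads held 80.0% and 82.1% of the Ttn reads.

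The deposited peaks numbered 237 in control muscle and 239 in mimic muscle and covered 13837 and 14150 nucleotides, so the libraries differed little in how much of the gene was called. Reads per kilobase of called peak were 1266 in control muscle and 1666 in mimic muscle. Nebulin (Neb), another giant sarcomere protein, which lies along the thin filament, had 73 peaks and 877 reads per kilobase in the control and 76 peaks and 1021 in the mimic. Many miRNAs shared each Ttn peak, with a median of 11 in control muscle and 15 in mimic muscle, against 13 and 16 for Neb and 3 for all peaks outside Ttn.

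Overlapping peaks of both libraries merged into 234 positions with a median length of 58 nucleotides, which together covered 5.77% of the gene span. The control had reads at 205 of them and the mimic at 204, and 175 were found in both, which is 85.4% of the control positions and 85.8% of the mimic positions. The shared positions held 97.6% of the Ttn reads in control muscle and 98.3% in mimic muscle. Positions found in 1 library were small: the highest held 36.4 reads in control muscle and 50.03 in mimic muscle.

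Reads lay mostly toward the 3′ end of the gene. In the control the last 4 of 10 equal parts of the span, counted from the 5′ end, held 80.7% of the reads, and in the mimic 81.3%. The final part alone held 28.3% in control muscle (27.7 to 29.0%) and 29.9% in mimic muscle (29.3 to 30.5%), at 46 positions. The third part was almost empty, with 47.4 reads in control muscle and 53.3 in mimic muscle at 3 positions, and the longest stretch with no peak, 25195 nucleotides from 55.4 to 80.6 kb, lay mostly within it. Both libraries followed this profile, but genomic distance is not transcript distance, and the exons of GRCm38 were not used here.

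**Figure D1:**
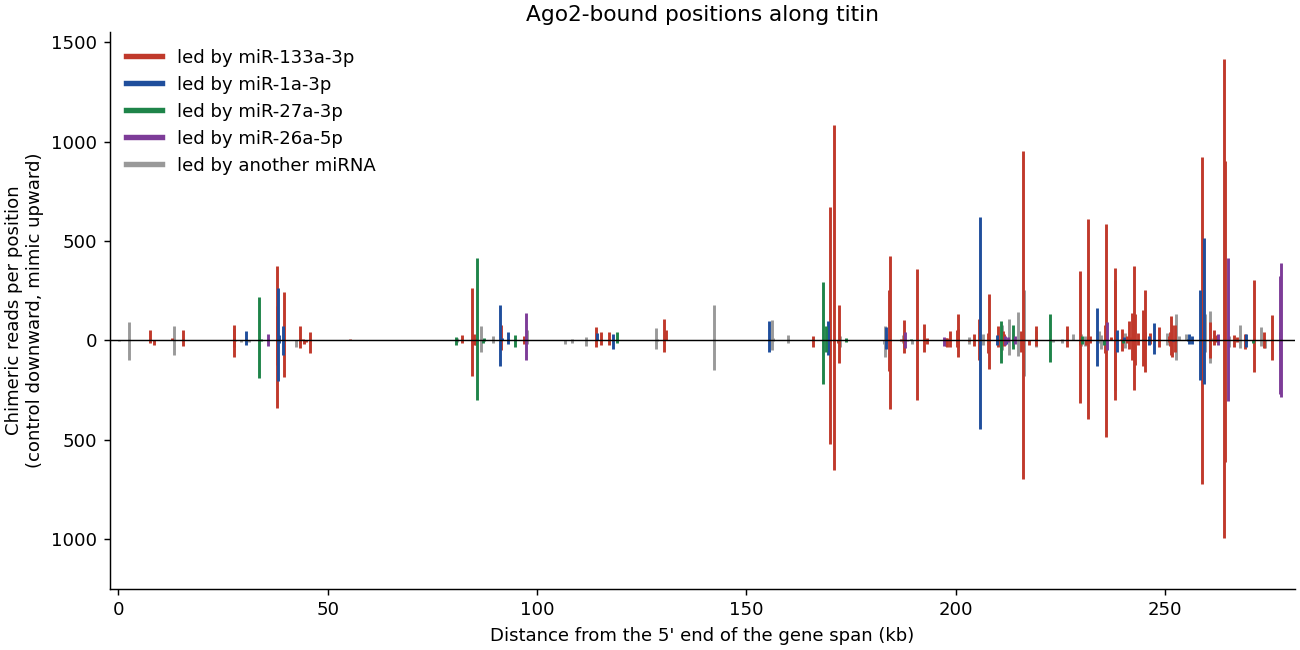
Chimeric reads at each of 234 merged positions (vertical lines) against distance from the 5′ end of the Ttn span in kb, with the mimic library upward and the control library downward, coloured by the miRNA with the most reads. Most high lines stand beyond 167 kb, in the last 4 of 10 parts, and nearly every one has its counterpart in the other library.

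miR-133a-3p led on Ttn. This muscle miRNA had 6884 Ttn reads in control muscle and 9421 in mimic muscle, which was 39.3% (38.6 to 40.0%) and 40.0% (39.3 to 40.6%) of the Ttn reads, against 16.7% and 18.2% of the reads outside Ttn. miR-133b-3p followed with 2398 and 2585 reads, 13.7% and 10.97% of Ttn against 4.49% and 4.31% outside. Pooled by their shared seed they made up 53.0% of the Ttn reads in control muscle and 50.9% in mimic muscle. About 1 in 6 of all miR-133a-3p chimeric reads lay on this gene, 16.1% in control muscle and 18.0% in mimic muscle.

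miR-1a-3p, the miRNA supplied by the mimic, came next with 1630 control and 2737 mimic reads. Its share of Ttn was 9.31% (8.88 to 9.75%) in the control and 11.6% (11.2 to 12.03%) in the mimic, below its share outside Ttn, 11.997% and 14.1%. miR-206-3p, the muscle-restricted miRNA with the same seed, had 732 and 855 reads and was also lower on Ttn, 4.18% against 6.76% outside in the control and 3.63% against 5.77% in the mimic. So the pair sharing this seed held less of Ttn than of other genes, and the pair of miR-133 seeds held more, in both libraries.

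The miRNAs next in order are not specific to muscle. miR-27a-3p had 1001 and 1284 reads, 5.71% and 5.45% of Ttn against 2.83% and 2.51% outside. miR-26a-5p had 843 and 1162 reads, 4.81% and 4.93% against 2.74% and 2.75%. Behind them came miR-24-3p with 322 and 423 reads, miR-23a-3p with 319 and 398, miR-27b-3p with 302 and 332 and miR-22-3p with 258 and 363. miR-23, miR-24 and miR-27 are made from shared clusters, and the shares of miR-24-3p and miR-23a-3p on Ttn and outside it differed by less than 1.07-fold in both libraries. The 10 leading miRNAs together held 83.9% of the Ttn reads in control muscle and 83.0% in mimic muscle, against 52.5% and 54.7% of the reads outside.

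**Figure D2:**
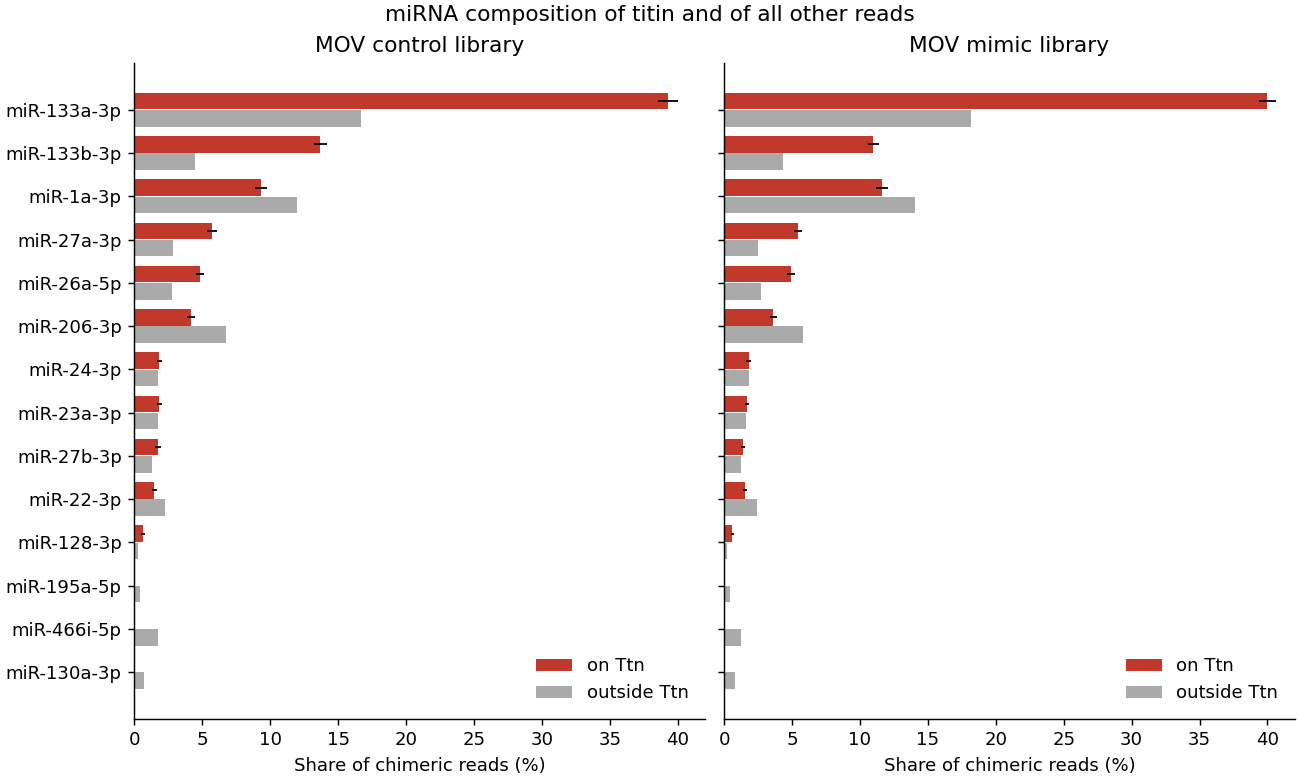
Share of chimeric reads (%) of the 14 miRNAs named by rule on Ttn (red, with 95% exact binomial intervals for counting error) and outside Ttn (grey), in the control library (left) and the mimic library (right). miR-133a-3p stands at 39.3% and 40.0% of Ttn against 16.7% and 18.2% outside, while miR-1a-3p and miR-206-3p are lower on Ttn than outside.

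Among 50 miRNAs with at least 1000 chimeric reads in all, 8 had a higher share on Ttn than outside it in both libraries and 40 a lower one. The highest were miR-133b-3p, 3.05 times its outside share in control muscle and 2.55 times in mimic muscle, miR-128-3p at 2.31 and 2.47 times, and miR-133a-3p at 2.35 and 2.20 times. miR-128-3p had only 109 and 141 Ttn reads. The lowest were miR-466i-5p with 6.27 and 3.16 Ttn reads against 3734 and 2905 outside, miR-130a-3p with 2.68 and 4.21 reads, and miR-195a-5p with 2.23 and 7.96 reads. Each of these last 3 was under 0.09 times its outside share in both libraries. A low share was common: 29 of the 50 were below 0.5 times their outside share in both libraries, and these included broadly expressed miRNAs such as miR-16-5p. Among the 29 were some known from other cell types of muscle, looked up after the values had been seen. miR-126a-3p, an endothelial miRNA, stood at 0.189 times its outside share in control muscle and 0.245 in mimic muscle, miR-142a-3p, a miRNA of blood cells, at 0.151 and 0.179, and miR-214-3p, which is abundant in fibroblasts, at 0.0859 and 0.122. The 29 also held miR-133a-5p, which carries the name of the same precursor as miR-133a-3p, at 0.366 in control muscle and 0.427 in mimic muscle. In a whole muscle, the share of a miRNA outside Ttn joins all cell types, so low binding within fibers and expression in other cells cannot be told apart.

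Of 9 muscle-enriched miRNAs listed for description, 8 had Ttn reads in control muscle and 6 in mimic muscle, and together they made up 67.9% of the Ttn reads in each library, against 42.5% outside Ttn in control muscle and 45.3% in mimic muscle. That excess was held by the miR-133 pair, at 53.0% of Ttn against 21.2% outside in the control and 50.9% against 22.5% in the mimic. The other members with more than a few reads had a lower share on Ttn than outside in both libraries: miR-1a-3p at 0.776 and 0.826 times, miR-206-3p at 0.618 and 0.629, miR-378a-3p at 0.537 and 0.520, and miR-486b-5p at 0.537 and 0.952. miR-378a-3p had 208 and 321 reads and miR-486b-5p 29.9 and 82.6, a ratio of 2.76 (1.80 to 4.35). The miRNAs embedded in myosin genes were scarce in the libraries as a whole. miR-499-5p had 1.02 control reads on Ttn and 6.11 outside, miR-208b-3p had 0.786 and 4.24, and neither was listed on Ttn in the mimic, where 20.6 and 7.01 reads lay outside. miR-486a-5p was not listed on Ttn in either library.

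The 10 positions with the most reads summed over both libraries together carried 33.6% of the Ttn reads in control muscle (32.9 to 34.3%) and 34.7% in mimic muscle (34.1 to 35.3%). In each library, 20 positions were enough to hold 50% of the reads. The composition differed sharply between these positions, but the same miRNA led each of them in both libraries.

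The highest position, 76718333 to 76718507, 264 kb from the 5′ end of the gene, had 995 reads in control muscle and 1415 in mimic muscle. miR-133a-3p held 29.4% of it in control muscle and 24.9% in mimic muscle, more than any other name. Pooled by family name, however, let-7, a family known for differentiation and growth control, held more than the miR-133 pair: 49.2% against 44.8% in the control and 57.5% against 36.5% in the mimic. This position held 67.8% of all let-7 reads on Ttn in control muscle and 68.8% in mimic muscle. A second high position lay beside it, 76718027 to 76718141, with 614 and 901 reads. There miR-133a-3p had 46.9% and 39.4% and miR-1a-3p 18.2% and 34.1%, the largest move of a miR-1a-3p share among the 10.

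At 76811538 to 76811699, 171 kb from the 5′ end, 654 control and 1083 mimic reads were almost all of miR-133, with miR-133a-3p at 88.3% and 88.2%. Less than 1 kb away, 76812477 to 76812601 had 523 and 670 reads, of which miR-133a-3p held 60.7% and 64.7% and miR-133b-3p 34.7% and 31.1%. The neighbours thus differed in the split between the miR-133 names. miR-133b-3p made up 9.68% of the pair at the first in control muscle and 8.33% in mimic muscle, and 36.4% and 32.5% at the other. Over positions with at least 20 reads of the pair, its part ranged from 2.85 to 49.6% in the control (74 positions, median 27.6%) and from 2.05 to 44.6% in the mimic (77 positions, median 23.1%). How the authors named reads that fit both miRNAs was not given in the sources used here.

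Mixed positions were also among the highest. At 76766418 to 76766647 there were 700 control and 953 mimic reads, of which miR-133a-3p had 46.6% and 43.9% and miR-1a-3p 17.5% and 23.9%. At 76723581 to 76723792 there were 722 and 924 reads, with miR-133a-3p at 53.7% and 54.5% and miR-133b-3p at 22.3% and 15.7%. The 3 miRNAs that share the letters CACAGUG came next: miR-27a-3p held 11.9% in control muscle and 15.2% in mimic muscle, miR-27b-3p 4.48% and 5.12%, and miR-128-3p 1.73% and 1.77%.

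Among the other 4 positions, miR-133a-3p led at 76746507 to 76746774 (485 control and 583 mimic reads), at 76750905 to 76751076 (395 and 609) and at 76798089 to 76798235 (347 and 427), with 54.3 to 77.7% in control muscle and 57.8 to 79.5% in mimic muscle. Of the 10, only 76776695 to 76776838, at 206 kb, was led by miR-1a-3p. Its 449 control and 619 mimic reads were 63.3% and 63.9% of miR-1a-3p and 23.9% and 22.5% of miR-206-3p. The next position in the order, 76723207 to 76723311, was also led by miR-1a-3p, with 73.4% of 219 control reads and 78.3% of 515 mimic reads, and in the mimic alone it had more reads than the tenth.

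**Figure D3:**
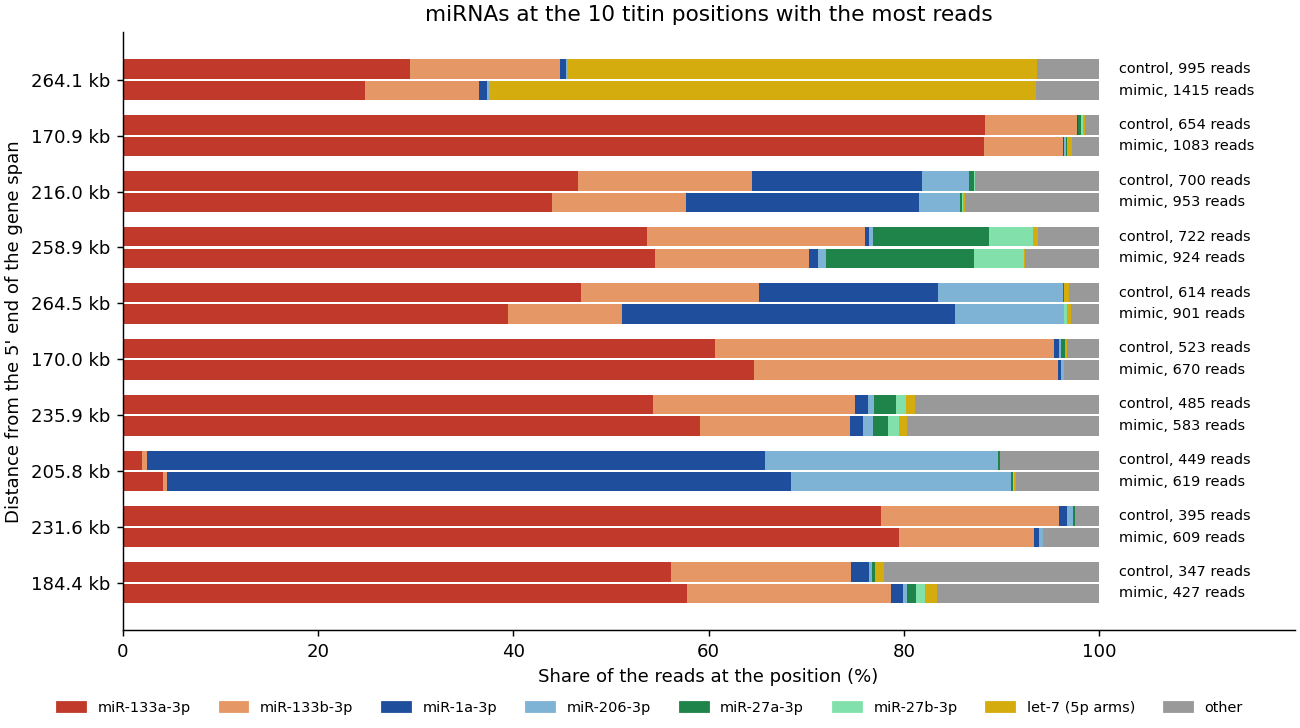
Share of reads (%) of 6 miRNAs and of the let-7 family at the 10 Ttn positions with the most reads, ordered from most (top) to fewest, for the control (upper bar) and mimic (lower bar) of each, labelled by distance from the 5′ end. miR-133a-3p leads at 9 of the 10 positions by name, let-7 is seen mainly at 264.1 kb, and miR-1a-3p leads at 205.8 kb.

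Of 234 positions, miR-133a-3p led 107, which held 63.9% of the Ttn reads in control muscle and 64.5% in mimic muscle. miR-1a-3p led 27 positions with 11.1% and 11.9% of the reads, miR-27a-3p led 21 with 7.14% and 6.33%, and miR-26a-5p led 12 with 6.73% and 6.52%. Among 176 positions with at least 20 reads over both libraries, 162 were found in both, and 147 had the same leading miRNA in both. At least some miR-133a-3p was held by 173 of the 176, and some miR-1a-3p by 155. The reads of miR-133a-3p were spread, with 12 positions needed for 50% of them in each library. Those of miR-26a-5p and miR-27a-3p were gathered, with 3 positions for miR-26a-5p in each library and 4 in control muscle and 3 in mimic muscle for miR-27a-3p.

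miR-27a-3p had its highest site toward the 5′ side, at 76896696 to 76896856, 85.8 kb along, with 239 control and 343 mimic reads. Its next, at 76814136 to 76814268, had 173 and 233, and the third, at 76723581 to 76723792, had 86.2 and 140. Of its reads, 41.4% in control muscle and 44.3% in mimic muscle lay in the first 6 of 10 parts of the gene, against 14.6% and 14.7% of miR-133a-3p reads.

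miR-26a-5p stood at the opposite end. Its highest sites were 76704787 to 76704865, with 211 control and 283 mimic reads, and the abutting 76704866 to 76704987, with 156 and 195. Another, at 76717368 to 76717478, had 127 and 181. Within the last 1100 nucleotides of the gene span lay 43.8% of its Ttn reads in control muscle and 41.2% in mimic muscle, against 0.0910% and 0.0808% of those of miR-133a-3p and 2.45% and 1.09% of those of miR-1a-3p. The abutting sites lay 807 to 885 and 886 to 1007 nucleotides from the 3′ end of the span. The longest Ttn transcript of the GENCODE annotation of the older mm9 build ends in a 3′ untranslated region of 1051 nucleotides, which holds 1 match to the miR-26 seed, TACTTGA, 879 nucleotides before its end. The stretch around it is shown with the match in capitals, since it is the only match of that seed in that region.
miR-26 match in the Ttn 3′ untranslated region: catttcaatcctttcaTACTTGAcctgaga
The transcript and the peaks are of different builds and were not mapped onto each other, so both distances are set side by side and no more.

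miR-1a-3p and miR-206-3p share a seed but not their order at every position. The miR-206-3p part of the pair was 31.0% of Ttn reads in control muscle (29.1 to 32.9%) and 23.8% in mimic muscle (22.4 to 25.2%), against 36.0% and 29.1% outside. miR-206-3p held more than 50% of the pair at 3 of 23 positions with at least 20 reads of it in control muscle and at 1 of 24 in mimic muscle. miR-1a-3p was well ahead at 76776695 to 76776838 with 284 control and 395 mimic reads, against 107 and 139 of miR-206-3p. At 76840231 to 76840311, 142 kb along, the order was turned: miR-206-3p had 123 reads in control muscle and 122 in mimic muscle, and miR-1a-3p 17.5 and 48.9. That position was picked out after its values were seen.

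Matches to the seeds were counted in the coding sequence of the same mm9 transcript, which is 105642 nucleotides long, and in the longest coding sequence of 22593 other genes, since no sequence of the peaks themselves was at hand. The motifs are the reverse complements of bases 2 to 8, read on the transcript strand only. GGACCAA, for miR-133, occurred 22 times in Ttn, 0.208 per kb against 0.0908 per kb in the others, and in 11.7% of the other genes. TACTTGA, for miR-26, occurred 9 times, 0.0852 against 0.0380 per kb. ACTGTGA, for miR-27, occurred 21 times, 0.199 against 0.140 per kb, and CACTGTG, for miR-128, which overlaps it by 6 letters, 20 times, 0.189 against 0.174 per kb. ACATTCC, for miR-1 and miR-206, occurred 5 times, 0.0473 against 0.0672 per kb. Over 24 seed groups with at least 1000 reads and a sequence entry for a member, the relative density of matches and the share on Ttn relative to outside had a Spearman rho of 0.42. miRNAs of that abundance with no entry, such as miR-378a-3p, were left out. The points share their libraries and the transcript, and the relation was loose. The shares are of the whole gene, while the matches are of coding sequence alone. For miR-26a-5p, 43.8% of its Ttn reads in control muscle and 41.2% in mimic muscle lay in the last 1100 nucleotides of the span. AAGTCCA, for miR-378b, had 24 matches in Ttn, at 2.11 times the density in other genes. Yet miR-378b stood on Ttn at only 0.542 times its outside share in control muscle and 0.476 times in mimic muscle. CGGTACG, for miR-126a-3p, was 3.30 times as dense in Ttn as in other genes but on only 2 matches, and that miRNA was also low on Ttn. A match in the transcript is not a site. The 5 matches of ACATTCC stand beside 27 positions led by miR-1a-3p, and the 22 of GGACCAA beside 107 led by miR-133a-3p. Shorter matches were not counted.

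Between the libraries, Ttn reads were 1.35 times as many in the mimic as in the control (exact conditional binomial interval, 1.32 to 1.37), against 1.097 outside Ttn (1.090 to 1.103). Divided by the library totals, the Ttn ratio was 1.21 (1.18 to 1.23). Neb stood at 1.07 (1.02 to 1.12) on the same scale. With 1 library per group, this difference cannot be set against the spread between animals, and more Ttn transcript, more fibers and more binding per transcript cannot be told apart. Among 37 genes with at least 500 reads in each library, 7 had a higher unscaled ratio than Ttn, led by Myh1, a fast myosin heavy chain gene, at 1.78, and the median of the other 36 was 1.12.

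At 44 positions with at least 100 reads in each library, the mimic had more reads at all 44, and at 41 of them the ratio was above that of the library totals, with a median of 1.35 and a range of 1.04 to 2.35. These positions are parts of 1 gene in 1 library per group, not replicates, and the same count over other genes is not given here. The excess was not even along the gene. Divided by library totals, the first 3 of 10 parts stood at 1.05 (0.909 to 1.21), 1.02 (0.953 to 1.102) and 1.01 (0.670 to 1.53), with intervals that held 1. The other 7 parts ran from 1.17 (1.12 to 1.22) in the ninth to 1.71 (1.47 to 1.98) in the fifth, and the final part stood at 1.27 (1.23 to 1.32). By miRNA, all 19 with at least 100 Ttn reads in each library had a higher ratio on Ttn than outside it. Among the 50 with at least 1000 chimeric reads in all, 44 did and the rest did not.

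miR-1a-3p reads on Ttn were 1.68 times as many in the mimic (1.58 to 1.79), against 1.29 outside Ttn (1.26 to 1.31). For all other miRNAs together the ratios were 1.31 on Ttn (1.28 to 1.34) and 1.07 outside (1.06 to 1.08). On and off the gene, miR-1a-3p thus had a higher ratio than the other miRNAs, and on Ttn it exceeded theirs by 1.28 times (1.1999 to 1.37, normal interval on the log ratio, for counting error only). On Neb, miR-1a-3p stood at 1.46 (1.28 to 1.67) and the other miRNAs together at 1.16 (1.102 to 1.22). A step that amplified with a primer for miR-1 is part of the published protocol, and its part in this was not tested.

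miR-1a-3p did not stand alone. Of the 19 miRNAs it had the second highest ratio on Ttn, behind let-7f-5p at 2.19 (1.75 to 2.79), which had 108 control and 238 mimic reads. let-7 as a family, taken up after its values were seen, had 723 and 1183 Ttn reads, a ratio of 1.64 (1.49 to 1.80), while outside Ttn it was level at 1.01 (0.989 to 1.02). Its ratio was 1.66 at the position with the most let-7 reads and 1.59 at all others. Set against its own ratio outside Ttn, miR-1a-3p was seventh of the 19, at 1.31 times, and let-7f-5p first, at 2.15 times. At the low end, miR-133b-3p had 1.08 on Ttn (1.02 to 1.14) and 1.05 outside, and miR-27b-3p 1.099 (0.938 to 1.29) and 1.08. Divided by library totals these Ttn ratios were below 1, at 0.967 and 0.985. miR-206-3p had 1.17 (1.06 to 1.29) on Ttn and 0.935 (0.914 to 0.958) outside, and miR-133a-3p 1.37 (1.33 to 1.41) and 1.19 (1.18 to 1.21).

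**Figure D4:**
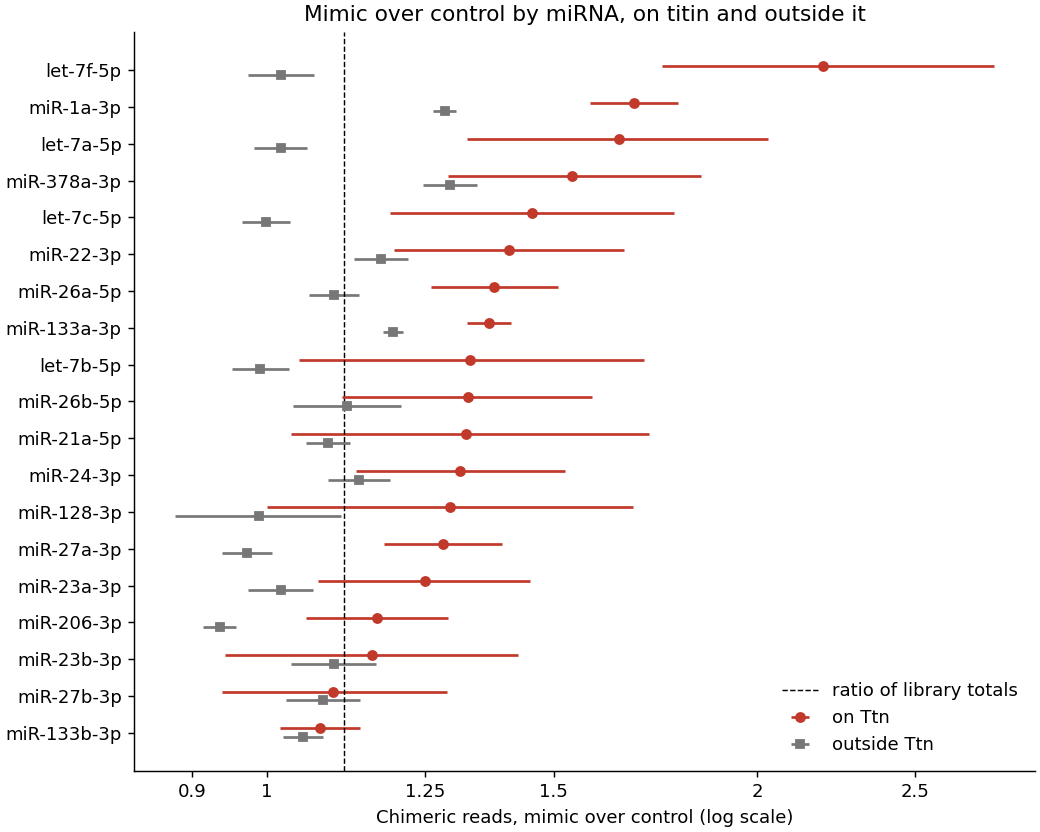
Ratio of mimic to control reads on a log axis for the 19 miRNAs with at least 100 Ttn reads in each library, on Ttn (red circles) and outside it (grey squares), with 95% counting intervals and the ratio of library totals, 1.12, as a dashed line. Every red circle lies to the right of its grey square, and let-7f-5p and miR-1a-3p have the highest ratios on Ttn.

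The 5 highest miR-1a-3p sites on Ttn carried much of its difference. The site at 76776695 to 76776838 had 284 control and 395 mimic reads, a ratio of 1.39 (1.19 to 1.63). At 76723207 to 76723311 there were 161 and 403 reads (2.51, 2.08 to 3.02), and at 76718027 to 76718141 there were 112 and 307 (2.75, 2.20 to 3.43). The site at 76766418 to 76766647 had 122 and 228 (1.86, 1.49 to 2.35) and the site at 76724030 to 76724122 had 98.4 and 139 (1.41, 1.09 to 1.86). The mimic was higher at all 5, by unequal amounts, and the intervals of the second and the third lay above that of the first. Without the 5 sites the ratio of miR-1a-3p on Ttn was 1.48 (1.36 to 1.62). The second, the third and the fifth lay in the final part of the gene, and the share of miR-1a-3p reads lying there was 28.6% in control muscle and 36.0% in mimic muscle.

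At the 3 highest sites of each of the other 4 leading miRNAs, ratios ran from 0.903 to 1.65. The miR-133a-3p sites had 578 control and 956 mimic reads at 76811538 to 76811699 (1.65, 1.49 to 1.84), 388 and 504 at 76723581 to 76723792 (1.30, 1.14 to 1.49), and 307 and 484 at 76750905 to 76751076 (1.58, 1.36 to 1.82). Those of miR-133b-3p had 181 and 208 at 76812477 to 76812601, 153 and 165 at 76718333 to 76718507, and 161 and 145 at 76723581 to 76723792. Each of these 3 ratios had an interval that held 1. At 76718027 to 76718141, where miR-1a-3p was 2.75 times as high, the miR-206-3p reads were 78.5 in control muscle and 101 in mimic muscle.

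Over all sites, where a site joins overlapping peaks of 1 miRNA from both libraries, 279 on Ttn had at least 20 reads over both, and these held 82.4% of the Ttn reads. After division by library totals, 70 of the 279 (25.1%) were at least 1.5-fold higher in the mimic, where 19.1% of the 2571 such sites of the whole series were. At least 1.5-fold lower were 23 (8.24%), against 17.7% of all sites. The median log2 ratio, scaled by library totals, was 0.22 on Ttn and -0.02 over the 2292 other sites. After scaling, 67.4% of the Ttn sites were higher in the mimic, against 49.0% of the others. The shift differed between miRNAs. Of the 29 miR-1a-3p sites on Ttn, 12 were at least 1.5-fold higher and 1 lower, with a median scaled log2 ratio of 0.37, and of 278 elsewhere 63 were higher and 32 lower, with a median of 0.11. Of the 87 miR-133a-3p sites on Ttn, 26 were higher and 6 lower (median 0.23), against 118 and 74 of 488 elsewhere (median 0.10). The medians on Ttn were near 0 or below it for miR-133b-3p (0.02, 46 sites), miR-206-3p (-0.02, 16 sites) and miR-27a-3p (-0.12, 15 sites). Their medians elsewhere were lower still, at -0.16 (135 sites), -0.26 (149 sites) and -0.15 (82 sites).

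The largest rises were at sites of few reads. miR-133a-3p at 76974951 to 76975019 had 4.43 control and 23.5 mimic reads (5.31, 2.06 to 23.8), let-7f-5p at 76722908 to 76722992 had 11.4 and 49.9 (4.38, 2.34 to 9.68), and miR-133a-3p at 76771201 to 76771272 had 4.83 and 19.7 (4.09, 1.46 to 13.6). Among the largest falls, miR-22-3p at 76708501 to 76708570 had 32.3 control reads and miR-23a-3p at 76940019 to 76940080 had 20.7, and neither had a peak listed there in the mimic. The third was miR-133b-3p at 76948936 to 76949078, with 26.6 and 8.41 reads (0.316, 0.116 to 0.670).

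**Figure D5:**
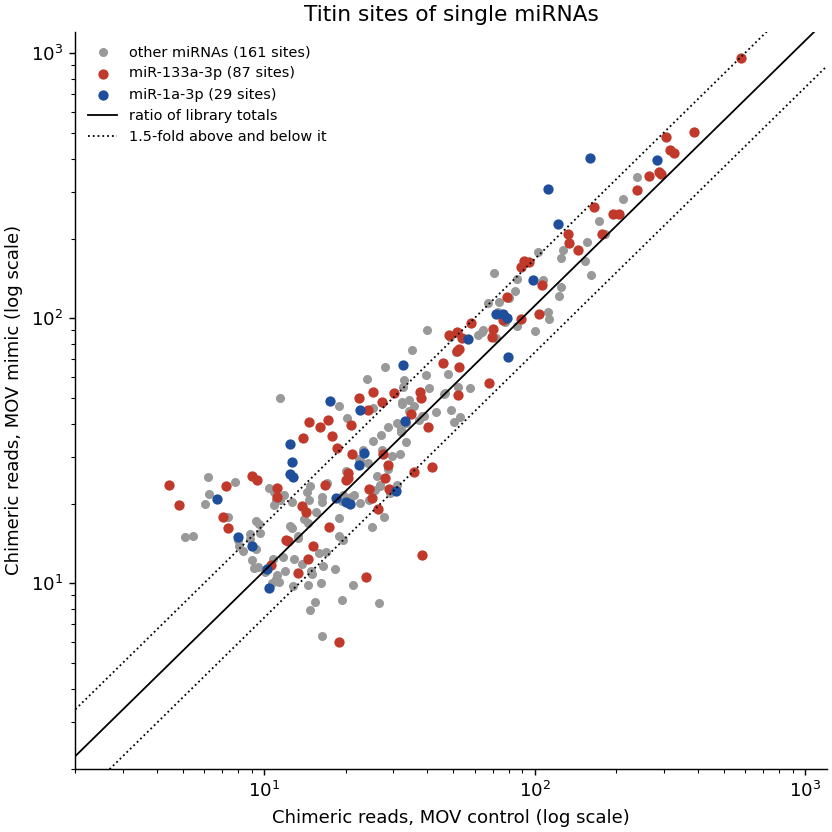
Reads in the mimic against the control on log axes for 277 of the 279 Ttn sites with at least 20 reads over both libraries, leaving out 2 with no mimic peak, with the ratio of library totals as a solid line and 1.5-fold above and below it as dotted lines. Most points lie above the solid line, and miR-1a-3p (blue) has 12 of its 29 sites above the upper dotted line.

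The miRNA composition of Ttn was compared with that of the 36 other genes with at least 500 reads in each library, by the sum over miRNAs of the smaller share of the pair. Genes were ordered by the mean of both libraries. Ttn resembled Neb most, with 81.2% of composition shared in control muscle and 81.9% in mimic muscle. Myh4, a fast myosin heavy chain gene, followed with 77.2% and 79.4%, then Actn2, the Z-disc protein alpha-actinin, with 77.6% and 76.9%, Myh1 with 74.7% and 73.9%, and Tpm1, a tropomyosin of the thin filament, with 72.2% and 72.3%. The median over the 36 genes was 46.7% in control muscle and 49.1% in mimic muscle, and all reads outside Ttn as a whole shared 61.1% and 65.0% with it. The Ttn compositions of the libraries shared 94.2% with each other. Neighbouring values changed order between the libraries, as those of Myh4 and Actn2 did, and Tpm1 was among the 5 by the mean only: Myh2 and Pygm were above it in the control, at 72.6% and 72.3%, and Tnnt3 in the mimic, at 73.6%. The 5 genes also differed in direction: the unscaled ratio of mimic to control was 1.19 for Neb, 0.781 for Myh4, 0.990 for Actn2, 1.78 for Myh1 and 1.14 for Tpm1.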

How the data were processed

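Chimeric eCLIP libraries of Ago2 were deposited as peak lists, 1 per library, with peak position, miRNA, value and strand. The values are estimated counts of chimeric reads, 1 value for each miRNA at each peak, as deposited by the authors, not scaled to depth and mostly fractions (10.2% of Ttn values were whole in control muscle and 9.22% in mimic muscle, within 1e-06). Per the methods, the authors trimmed adapters, filtered repeats, used STAR for alignment, collapsed duplicates that shared a start and random bases, and ran CLIPper to call peaks. The processing notes name cutadapt 3.2, UMI-tools 1.1.1, Bowtie 1.2.3, STAR 2.7.7a and HOMER 4.11, and mm10, whereas the methods name mm9. Coordinates here are GRCm38, counted from 1. The division of reads into fractions was not given in the sources used here.

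Reads were summed from the lists with Python 3.11.15, pandas and SciPy, without scaling unless stated. Genes were assigned by RefSeq spans (GRCm38.p6), with strand taken by gene name from GENCODE vM1. Positions and sites were unions of peaks sharing at least 1 nucleotide. Intervals (95%) were exact Clopper-Pearson for shares, Poisson for reads and conditional binomial for ratios, on reads rounded to whole numbers. PCR and crosslinking add variation that they do not cover. The interval and fold functions were tested on simulated whole counts with changes larger than 1.5-fold, unlike the mostly fractional values here.

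Named miRNAs were the 10 with most Ttn reads, miR-1a-3p, miR-206-3p, and the 3 highest and 3 lowest in share on Ttn relative to outside. Named positions were the 10 with most reads, and named sites the 3 highest of each of the 5 leading miRNAs, the 5 highest of miR-1a-3p and the 3 largest rises and falls. The members and lists were chosen with earlier results of these data known. miR-199a-3p and miR-199b-3p were pooled for the likeness of genes. Alternatives covered low values, scaling, shared seeds, overlap, position definition and bin width. The input libraries were not used here. A comparison gene fixed in the plan is not reported here.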

Additional observations from a re-analysis of the deposited data

How the results depend on the processing

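No paired analysis was possible because there was 1 library on each side, and leaving out a library was not possible for the same reason. Of 118 values under alternatives, 54 moved past the counting interval of the reported value (for counts, past 1.5 times), 62 did not, and 2 turned direction. For the main results, those on Ttn as a whole, miR-133a-3p and miR-1a-3p, 26 of 37 moved, 11 did not and 0 turned direction. Divided by library totals, the ratio of Ttn reads was 1.21, that of miR-133a-3p 1.23 and that of miR-1a-3p 1.51, while miR-133b-3p fell below 1, to 0.967, and so did miR-27b-3p, at 0.985. Without the mitochondrial chromosome and Rn18s-rs5 the Ttn share was 9.46% in control muscle and 11.3% in mimic muscle. With entries of at least 3 reads, the Ttn share was 9.69% and 11.6% of reads and 5.30% and 5.73% of entries, the miR-133a-3p share of Ttn 43.6% and 44.1%, and the miR-1a-3p share 9.77% and 12.4%. Pooled by seed, the miR-133 share was 53.0% and 50.9% with a ratio of 1.29, and the share of miR-1a-3p with miR-206-3p 13.5% and 15.2% with a ratio of 1.52. With peaks as deposited, the 10 highest held 27.0% and 30.4%. In twentieths of the span, the fullest held 19.8% and 21.7%. Unscaled, 88 Ttn sites were at least 1.5-fold higher and 16 lower, counts that also carry the difference in library totals. With at least 50 reads, 36 and 4 of 159 were. The shares over all sites of the series at these 2 settings are not given here, so these counts stand without a background. Positions found in both libraries were 159 with 50% reciprocal overlap and 158 with entries of at least 3 reads. An alternative chosen after seeing the data, without the 5 highest miR-1a-3p sites, gave its ratio as 1.48. Counting error leaves sites near 20 reads wide intervals, and the spread between animals was not measured.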
